A study of Mus musculus with 24 samples.

Results

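Guanylate-binding proteins (GBPs) are encoded by a family of interferon-induced genes, and their transcripts were followed through the reprogramming of neural precursor cells (NPCs) into induced pluripotent stem cells (iPSCs). The members were the 10 mouse genes Gbp2, Gbp2b, Gbp3, Gbp4, Gbp5, Gbp6, Gbp7, Gbp8, Gbp9 and Gbp10, taken by symbol from the GENCODE vM21 annotation. Of these, 7 had a row among the 37315 genes of the normalized count table. The identifiers of Gbp5, Gbp6 and Gbp10 in that release matched no row, so these 3 genes were not analysed here. Gbp11, which the annotation calls a polymorphic pseudogene, had a row and is given beside the members.

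All 24 libraries came from PaX cells, 1 hybrid 129S1/SvImJ, CAST/EiJ embryonic stem cell (ESC) line that carries an X-GFP reporter within the Hprt locus of the M. musculus X, a truncated Tsix, a Nanog promoter-RFP reporter and a doxycycline-inducible cassette of c-Myc, Klf4, Oct4 and Sox2. There were 2 libraries for each of 12 populations. ESCs in serum and LIF were the pluripotent reference, and NPCs differentiated from them were the starting cells. Reprogramming cells were all given doxycycline, LIF and ascorbic acid on irradiated male mouse embryonic fibroblast feeders, either without added cytokine (control) or with 10 ng/ml IFNγ from day 0 to 5. Cells that did not carry the dye of the stained feeders (CFSE-negative) were sorted at day 2, and cells with the surface marker SSEA1 at day 5. At day 7, 2 days after IFNγ had been withdrawn, SSEA1-positive cells were split into X-GFP negative, medium and high. The study's methods call the 2 libraries of a population independent replicates, and no source used here says that they came from separate cultures, so p-values measure only the spread between these libraries.

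Cells sense IFNγ through a receptor made of IFNGR1 and IFNGR2, whose kinases JAK1 and JAK2 pass the signal to transcription factors. The response includes the transcription factor IRF1, which is itself induced and switches on further target genes. GBPs are large GTPases among the most strongly induced products of this pathway, and are known for coating pathogens and the vacuoles that hold them and for feeding into inflammasome signaling, together with the immunity-related GTPases. In the mouse they lie in a pair of gene clusters.

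The members of chromosome 3 were, on mm10 and on the plus strand, Gbp5 (142493978 to 142522344), Gbp7 (142530342 to 142550149), Gbp3 (142560026 to 142573209), Gbp2b (142594847 to 142619179) and Gbp2 (142620602 to 142638008). Those of chromosome 5 were on the minus strand, with Gbp8 at 105014150 to 105139540, Gbp9 at 105077630 to 105139539, Gbp4 at 105115767 to 105139586, Gbp10 at 105215699 to 105239533 and Gbp6 at 105270702 to 105293698. Gbp11 lay at 105323042 to 105346472 of the same cluster. All were annotated as protein-coding except Gbp11, and the values are sums over their exons.

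The coding sequences fell into groups by likeness. Gbp2 and Gbp2b shared 82.5% of their aligned coding bases and Gbp3 and Gbp7 shared 78.3%, whereas Gbp2 and Gbp7 shared 64.3%. Likeness did not follow the chromosome alone. Gbp3 and Gbp7 were closer to the chromosome 5 genes, at 73.1 to 76.7% and 74.2 to 76.3%, than to Gbp2, Gbp2b or Gbp5. The genes of chromosome 5 were closer to each other, with 90.2% between Gbp4 and Gbp9, 92.9% between Gbp4 and Gbp8, and 98.4% between Gbp6 and Gbp10. Such copies can exchange short reads. Of all 50-base windows of its transcripts, 84.1% of Gbp10 and 70.7% of Gbp6 also occurred in transcripts of other genes, against 18.1% in Gbp8, 19.2% in Gbp11, 12.7% in Gbp7, 8.05% in Gbp9, 7.78% in Gbp4, 3.75% in Gbp3, 2.03% in Gbp2 and 1.84% in Gbp2b. Gbp7 shared 11.3% of its exon bases with Gm43802 on the same strand, and Gbp4, Gbp8 and Gbp9 overlapped over at most 61 exon bases. The levels of Gbp8 and Gbp11 are therefore the least certain of those given.

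**Figure D1:**
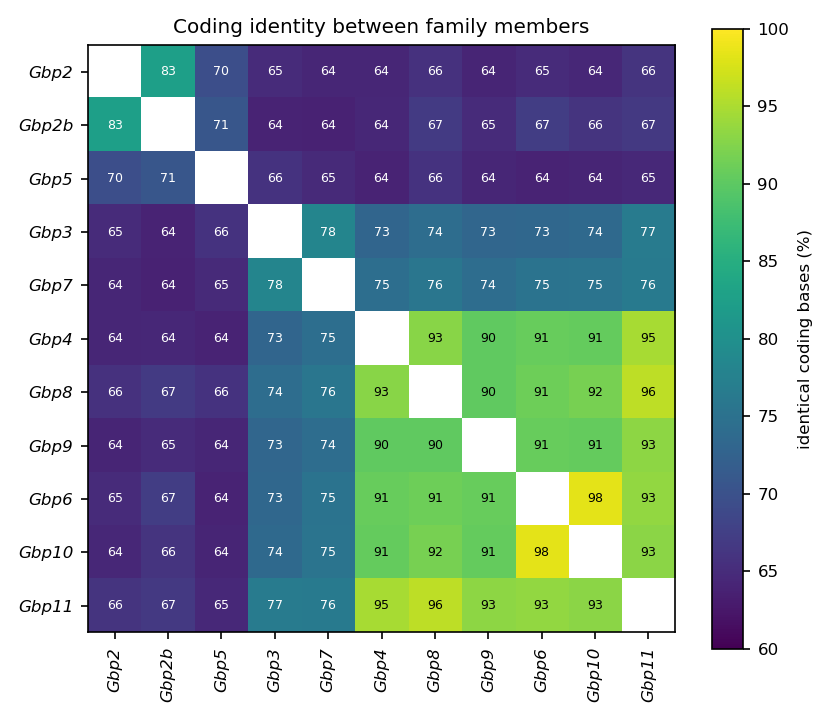
Identical bases as a percentage of aligned coding bases for each pair of the 10 members and Gbp11, as a color scale from 60 to 100% with the rounded percentage in each cell. The chromosome 5 genes form a block at 90% or more, and Gbp2 with Gbp2b (82.5%) and Gbp3 with Gbp7 (78.3%) stand out among the chromosome 3 genes. Gbp3 and Gbp7 also share 73.1 to 76.7% with the chromosome 5 genes.

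Promoter sequence was at hand for the chromosome 3 genes in RefSeq windows on GRCm38.p6, from 250 bases before to 50 bases after each annotated start. These stretches are shown because the STAT and IRF families of transcription factors act through short elements that can be read in them. The search used a STAT element, TTCNNNGAA, and an IRF element, GAAANNGAAA, on both strands, and matches are in capitals. All stretches are read 5′ to 3′ on the plus strand, on which each IRF match appears as its reverse complement. The stretch of Gbp2 is chr3:142620584-142620633, that of Gbp2b chr3:142594690-142594739, that of Gbp3 chr3:142559979-142560034, that of Gbp7 chr3:142530210-142530312 and that of Gbp5 chr3:142496684-142496910.
Gbp2: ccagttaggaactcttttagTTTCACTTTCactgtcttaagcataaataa
Gbp2b: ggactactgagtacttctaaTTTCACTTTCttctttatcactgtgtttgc
Gbp3: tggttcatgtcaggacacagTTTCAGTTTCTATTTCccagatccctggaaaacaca
Gbp7: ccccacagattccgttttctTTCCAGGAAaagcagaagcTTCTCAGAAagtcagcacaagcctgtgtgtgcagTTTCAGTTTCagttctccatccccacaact
Gbp5: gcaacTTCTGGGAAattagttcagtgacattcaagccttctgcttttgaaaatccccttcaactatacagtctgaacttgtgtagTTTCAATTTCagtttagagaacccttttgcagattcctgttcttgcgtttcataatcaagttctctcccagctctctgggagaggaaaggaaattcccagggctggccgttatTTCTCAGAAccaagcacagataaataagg

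Gbp7 and Gbp5 each held 2 STAT elements and 1 IRF element. In Gbp3 the first of its 2 windows held 2 overlapping IRF elements, at -45 to -36 and -39 to -30 from the start, and no STAT element, and the second window held neither. Gbp2 and Gbp2b each held 1 IRF element, at -59 to -50 and at -137 to -128. Distances are from RefSeq starts, which differ from the ends of some gene spans given above. The Gbp5 window and the Gbp2 match lie within the spans of their genes. Over all 32851 windows of this length, 8.30% held the STAT element and 3.44% the IRF element. A match is a description of the letters only, and the data do not measure factor binding.

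**Figure D2:**
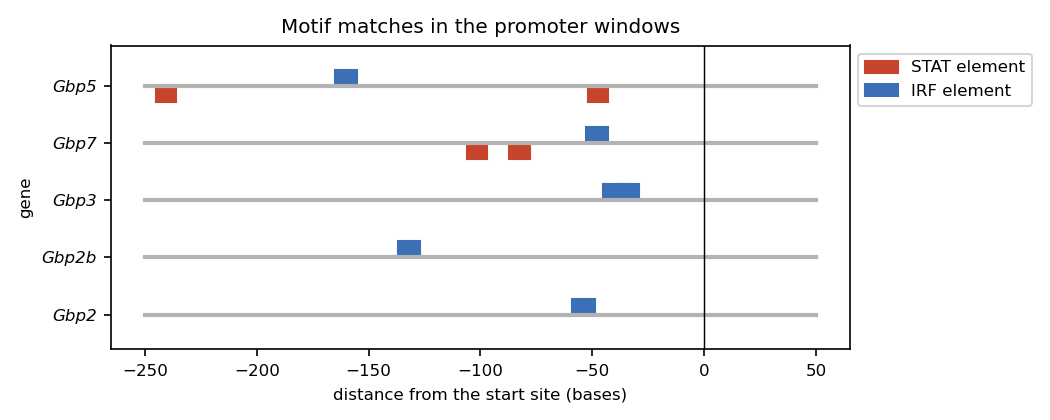
Matches to the STAT element (red, below the line) and the IRF element (blue, above the line) in the promoter windows of 5 genes, by distance in bases from the annotated start (vertical line). Each gene has at least 1 IRF element upstream of its RefSeq start, and Gbp7 and Gbp5 also have 2 STAT elements. For Gbp3 the first window is drawn.

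The libraries held 24746109 to 37056508 reads counted on genes, and their mitochondrial rRNA gene mt-Rnr2 took 9.02 to 19.1% of the counts. Counting noise did not account for the spread between the 2 libraries of each population (chi-square 3.16 to 19.3 times its degrees of freedom). Markers of pluripotent and neural precursor cells followed the labels. The summed level of 5 pluripotency genes was 107383 and 114776 normalized counts in ESCs and at most 85.6 in NPCs, and that of 5 neural precursor genes was 40589 and 40922 in NPCs and at most 807 in ESCs. The 7 leukocyte markers summed to 111 and 131 in NPCs, with Ptprc and Cd3e at 0, and to 181 to 281 in the day 2 libraries, with Cd3e at 0. They were higher elsewhere, at 293 and 272 in ESCs. At day 5 they summed to 647 and 653 in control and to 695 and 1053 in treated libraries.

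Before reprogramming the family as a whole took its lowest shares of the counts. Gbp8 was nonetheless higher on average in NPCs than in any control population, and Gbp9 higher than in those of day 5 and day 7. The 7 members together took 2.76 ± 0.150 (SD, n = 2) of every 1000000 normalized counts in ESCs and 14.3 ± 0.545 in NPCs. Normalized counts are reads divided by 1 size factor per library. Gbp9 led in both, at 35.4 and 40.9 in the ESC libraries and 249.9 and 267 in the NPC libraries. Gbp8 was listed at 0 and 1.90 in ESCs and at 50.6 and 56.2 in NPCs. Gbp7 measured 6.88 and 6.66 in ESCs and 29.2 and 25.5 in NPCs, so that all 3 genes were lower in both ESC libraries than in either NPC library. Gbp4 alone went the other way, with 32.4 and 31.4 in ESCs and 16.5 and 20.2 in NPCs. Gbp2 (1.97 and 1.90 in ESCs, 8.75 and 17.6 in NPCs) and Gbp3 (1.97 and 0 in ESCs, 17.5 and 5.27 in NPCs) rested on few reads. Gbp2b had no read in any of the 4 libraries.

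Tests used limma on log2(normalized count + 1) over genes with a mean above 10 in the libraries compared, and a call is an adjusted p under 0.1. Only 4 of the 7 members passed that filter for ESC against NPC, and all 4 were called. Gbp9 was lower in ESCs (log2 fold change -2.73 ± 0.20 (SE), limma adjusted p = 4.64e-05), as were Gbp8 (-4.99 ± 0.54, limma adjusted p = 0.000261) and Gbp7 (-1.86 ± 0.28, limma adjusted p = 0.00118), while Gbp4 was higher (0.77 ± 0.27, limma adjusted p = 0.0373). Among all genes tested 42.2% were called higher and 43.4% lower, so a call in this contrast is no mark of the family. Gbp8 and Gbp7 had a mean under 10 in ESCs and passed the filter through the NPC libraries.

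**Figure D3:**
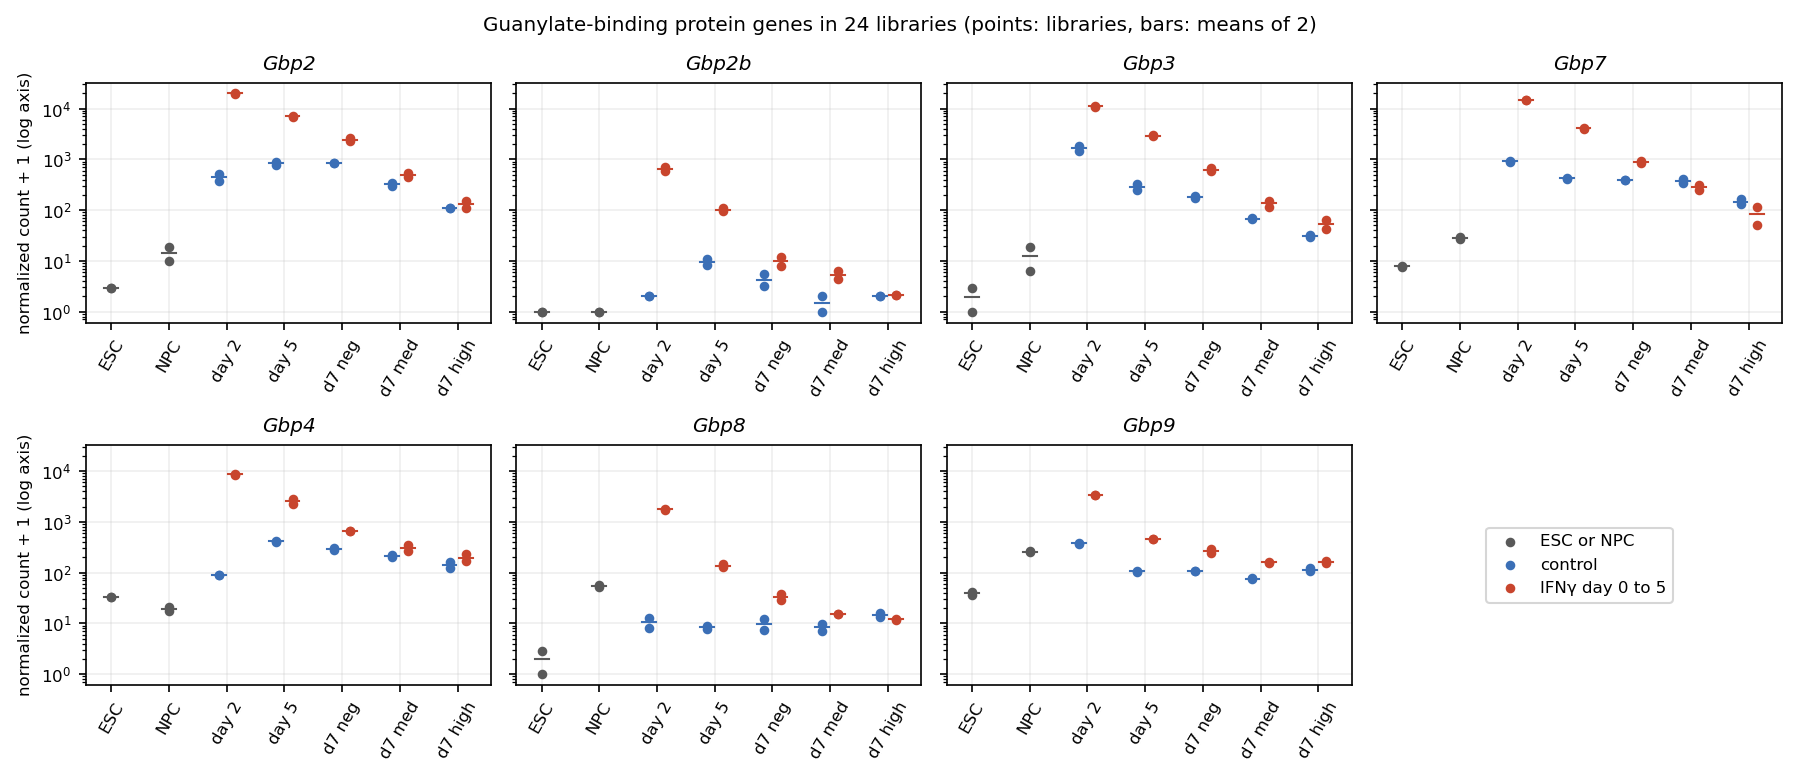
Normalized count plus 1 on a log axis for the 7 members in each of the 24 libraries (points) with the mean of the 2 libraries (bars), in ESCs and NPCs (gray), control cells (blue) and IFNγ-treated cells (red). The day 2 IFNγ libraries are the highest for each gene, and the gap between red and blue is smaller in day 7 X-GFP high cells than at day 2. For Gbp3 the gap is wider at day 5 than at day 2, and for Gbp7 it turns in X-GFP medium and high cells.

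On day 2 of reprogramming, control cells already carried more GBP transcripts than NPCs, at 129.6 ± 8.08 per 1000000 (SD, n = 2). Gbp3, whose product like that of other GBPs is a cytosolic GTPase, rose most. It measured 1463 and 1831 in day 2 control cells, against 17.5 and 5.27 in NPCs, which rest on 24 reads (log2 fold change 7.25 ± 0.49 (SE), limma adjusted p = 0.000129). Gbp7 reached 897 and 938 (5.02 ± 0.17, limma adjusted p = 3.22e-05) and Gbp2 518 and 366 (5.02 ± 0.37, limma adjusted p = 0.000167). No control library overlapped an NPC library in these 3 genes. How many of all genes separate in this way was not counted, here or in the later comparisons.

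The chromosome 5 genes behaved differently from one another over the same interval. Gbp4 rose to 90.6 and 90.3 (2.25 ± 0.26, limma adjusted p = 0.00076). Gbp9 rose to 386 and 369 (0.55 ± 0.13, limma adjusted p = 0.0118), a call that was lost when day 2 control replicate 1 was left out (0.51, limma adjusted p = 0.11). Gbp8 fell to 7.13 and 11.9 (-2.41 ± 0.35, limma adjusted p = 0.00177), below both NPC libraries. In all, 5 of the 6 members tested rose and 1 fell, against 31.6% of all genes tested called higher and 37.6% lower. Gbp8 passed the filter only through the NPC libraries. The median log2 fold change of the 6 members tested was 3.63 and that of all genes tested -0.08. Gbp2b had 1 read in each day 2 control library and was not tested.

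Y-linked RNA, a sign of feeder cells, moved with this comparison. The summed level of 4 Y-linked genes, which a female line lacks and the male feeders carry, was at most 1.94 in an NPC library, 253 and 218 in the day 2 control libraries, 125 and 223 in the day 2 IFNγ libraries and at most 12.5 in any later library. Col1a1 and 7 other fibroblast markers summed to 30196 and 43108 in NPCs, against 61408 and 41396 on day 2 without IFNγ, and none of them was at 0 in these. The fibroblast sums thus overlapped between the groups. The part of either marker set in the rise of the family was not tested. In sorted populations a change in the share of cells that carry a transcript and a change in RNA per cell cannot be told apart.

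IFNγ raised every member that was measured at day 2. Gbp2, the most abundant member, measured 518 and 366 without and 19784 and 19887 with IFNγ, 44.8-fold (5.51 ± 0.15, limma adjusted p = 4.56e-06). Gbp7 went from 897 and 938 to 14804 and 15036, 16.3-fold (4.02 ± 0.05, limma adjusted p = 1.69e-07). Gbp3, already high, went from 1463 and 1831 to 10586 and 11469, 6.69-fold (2.75 ± 0.11, limma adjusted p = 3e-05). It showed the smallest log2 change of the 7. Gbp2b, the closest copy of Gbp2, went from 1 read in each control library to 581 and 713. That is a ratio of 642 with an exact counting interval (95%) of 177 to 5308, and its fitted value (8.33 ± 0.26, limma adjusted p = 9.03e-06) depends on the pseudocount.

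On chromosome 5, Gbp4 rose from 90.6 and 90.3 to 8541 and 8823, 96.0-fold (6.57 ± 0.07, limma adjusted p = 7.3e-08). Gbp8 rose from 7.13 and 11.9 to 1799.5 and 1717, 185-fold (7.42 ± 0.24, limma adjusted p = 1.09e-05), the gene that had fallen on leaving the NPC state. Gbp9 rose from 386 and 369 to 3321 and 3415, 8.92-fold (3.15 ± 0.07, limma adjusted p = 1.55e-06). Gbp11 rose beside them, from 5.09 and 2.98 to 556 and 694 (6.98 ± 0.29, limma adjusted p = 3.92e-05). In none of these genes did a treated library come near a control library.

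Thus 7 of 7 members were called higher at day 2, where 5.03% of all genes tested were called higher and 3.45% lower. Their median log2 fold change was 5.51, against 0.01 over all genes tested. Gbp2b and Gbp8 passed the filter only through the treated libraries. The family as a whole rose from 129.6 ± 8.08 to 2221 ± 70.1 per 1000000 (SD, n = 2). The 8 fibroblast markers, which NPCs carry too, summed to 30729 and 25195 in the treated libraries, below both control libraries, and the Y-linked sums given above overlapped between the arms.

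Per kilobase of exon, the make-up of the family also differed between the arms at day 2. In control cells Gbp3 led with 505 ± 79.7 normalized counts per kilobase (SD, n = 2), 54.1% of the sum of the 7 members. It was followed by Gbp2 (176 ± 42.7) and Gbp7 (163 ± 5.14), which did not differ beyond their spread. With IFNγ Gbp2 led with 7884 ± 29.0, 47.9% of the sum, ahead of Gbp3 with 3378 ± 191 and Gbp7 with 2658 ± 29.3. Gbp4 (1159 ± 26.7), Gbp9 (651 ± 12.8), Gbp8 (511 ± 17.0) and Gbp2b (229 ± 33.1) came after, and no neighbours in this order overlapped within 1 SD. Gbp9, which made up 52.0% of the sum in ESCs and 61.3% in NPCs, made up 3.95% here.

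**Figure D4:**
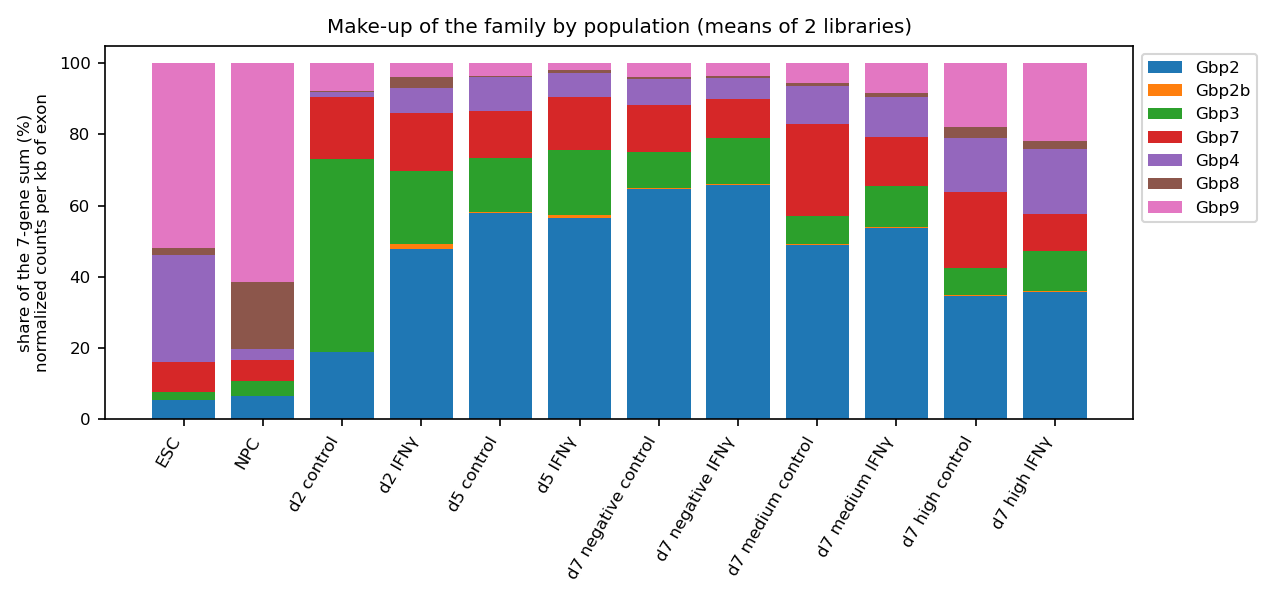
Share of each gene in the sum of the 7 members, in percent of normalized counts per kilobase of exon, by population (means of 2 libraries). Gbp9 leads in ESCs and NPCs, Gbp3 in day 2 control cells with 54.1%, and Gbp2 in the other 9 populations.

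By day 5, still under IFNγ, the treated cells had lower levels of every measured member than at day 2. Gbp2 measured 7229 and 6739, 35.2% of its day 2 level (-1.51 ± 0.06, limma adjusted p = 1.51e-05). Gbp7 (4026 and 4167), Gbp4 (2761 and 2293) and Gbp3 (2827 and 3029) kept 27.5%, 29.1% and 26.6%. Gbp2b (108 and 93.3) kept 15.5%, Gbp9 (449 and 454) 13.4% and Gbp8 (144 and 129) 7.76% (-3.68 ± 0.11, limma adjusted p = 9.16e-06). The chromosome 5 genes Gbp8 and Gbp9 thus had the lowest remaining shares, and Gbp11 kept 3.83%. All 7 members were called lower, against 34.1% of all genes tested called higher and 36.7% lower, with a median log2 fold change of -1.91 against -0.02 over all genes tested. The sorts differed between these days, with CFSE-negative cells at day 2 and SSEA1-positive cells at day 5. The 8 fibroblast markers summed to 30729 and 25195 in treated libraries of day 2 and to 1447 and 909 in those of day 5. The Y-linked genes summed to 125 and 223 and then to 8.62 and 8.70. The part of these differences in the lower levels was not tested.

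Control cells took another course over these days. Gbp2 rose from 518 and 366 to 773 and 895 (0.93 ± 0.17, limma adjusted p = 0.0026) and Gbp4 from 90.6 and 90.3 to 404 and 417 (2.17 ± 0.15, limma adjusted p = 2.7e-05). Gbp3 fell to 242 and 319 (-2.55 ± 0.16, limma adjusted p = 1.94e-05), Gbp9 to 108 and 104 (-1.83 ± 0.15, limma adjusted p = 5.52e-05) and Gbp7 to 412 and 436 (-1.11 ± 0.10, limma adjusted p = 7.69e-05). That is 2 of 5 members tested higher and 3 lower, where 34.9% and 35.6% of all genes tested were called. A call in this contrast is thus no mark of the family. Gbp2b reached 10.1 and 7.10, a ratio of 8.60 on 20 against 2 reads (exact counting interval (95%) 2.09 to 75.9), and Gbp8 stayed at 6.73 and 7.99. Neither of them was tested. The sorts differed as well, with CFSE-negative cells at day 2 and SSEA1-positive cells at day 5, and the Y-linked genes summed to 5.89 and 2.66 in day 5 control cells.

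The IFNγ effect at day 5 was again upward in all 7 members, against 1.65% of all genes tested called higher and 0.535% lower. Gbp3 and Gbp7 were 10.4-fold and 9.66-fold above their controls (3.39 ± 0.14, limma adjusted p = 0.000112, and 3.27 ± 0.09, limma adjusted p = 1.6e-05). Gbp2 was 8.37-fold higher (3.07 ± 0.10, limma adjusted p = 2.96e-05) and Gbp4 6.16-fold (2.61 ± 0.11, limma adjusted p = 0.000124). Gbp8, Gbp2b and Gbp9 were called too, with log2 fold changes of 4.04 ± 0.28, 3.42 ± 0.31 and 2.08 ± 0.15. No treated library overlapped a control library for any of the 7, but the share of all genes that separate in this way was not counted. Their median log2 fold change was 3.27, against -0.00 over all genes tested. Gbp8 and Gbp2b passed the filter through the treated libraries, which had 144 and 129 and 108 and 93.3 normalized counts.

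The change of the IFNγ effect between day 2 and day 5 was tested as an interaction over the 8 libraries. It was smaller at day 5 for 6 of the 7 members, where 0.474% of all genes tested had a lower and 0.202% a higher effect. Gbp4 changed by -3.95 ± 0.14 (limma adjusted p = 8.02e-06), Gbp2 by -2.44 ± 0.20 (limma adjusted p = 0.0012), Gbp8 by -3.38 ± 0.37 (limma adjusted p = 0.00543) and Gbp2b by -4.91 ± 0.39 (limma adjusted p = 0.00103). Gbp9 changed by -1.07 ± 0.13 (limma adjusted p = 0.00764) and Gbp7 by -0.75 ± 0.09 (limma adjusted p = 0.00753), a call that was lost with all 24 libraries in 1 model (limma adjusted p = 0.363). Gbp3 stood apart, with a larger effect at day 5 by 0.64 ± 0.20 that did not pass the test (limma adjusted p = 0.332). Its call depended on the tool, since DESeq2 on the whole reads gave an adjusted p of 0.0418. The median change over the 7 was -2.44, against -0.01 over all genes tested. Gbp2b and Gbp8 had means under 10 in the control cells of both days and passed the filter through the treated libraries. The size of the Gbp2b change depends on the pseudocount. The sorts differed between the days in both arms, and their part in these changes was not tested.

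**Figure D5:**
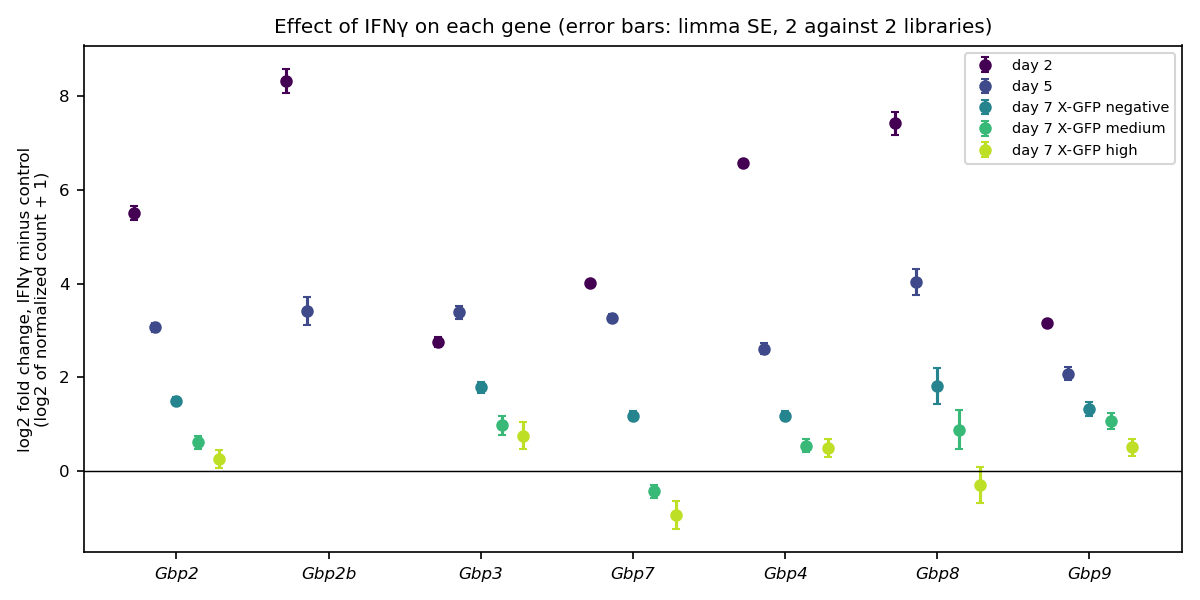
Log2 fold change of IFNγ-treated over control cells on the scale of log2(normalized count + 1) for each member, by day and day 7 population (points), with the limma standard error (bars, 2 against 2 libraries); Gbp2b was not tested at day 7. The effect is largest at day 2 except for Gbp3, and Gbp7 lies below 0 in X-GFP medium and high cells.

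At day 7, 2 days after withdrawal, the effect was still present in X-GFP negative cells, in which the X-linked reporter was silent. Gbp2 measured 854 and 855 in control and 2603 and 2247 in treated cells, 2.84-fold (1.50 ± 0.09, limma adjusted p = 2.71e-06). Gbp3 went from 184 and 171 to 660.4 and 578, 3.49-fold (1.80 ± 0.12, limma adjusted p = 4.98e-06), and Gbp7 from 388 and 385 to 917 and 849 (1.19 ± 0.09, limma adjusted p = 1.12e-05). Treated libraries lay above control libraries in each of these genes.

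Those of chromosome 5 did the same in X-GFP negative cells. Gbp4 went from 302 and 276 to 655 and 660.2 (1.19 ± 0.10, limma adjusted p = 1.9e-05), Gbp9 from 104 and 105 to 292 and 241 (1.33 ± 0.15, limma adjusted p = 9.2e-05) and Gbp8 from 11.0 and 6.44 to 37.6 and 27.7 (1.82 ± 0.38, limma adjusted p = 0.00318). All 6 members tested were higher. This contrast called many genes, 31.1% higher and 30.8% lower, and the members' median of 1.42 compares with 0.02 over all genes tested. Gbp8 passed the filter through the treated libraries. Gbp2b, at 4.39 and 2.15 without and 10.7 and 6.93 with IFNγ, was not tested.

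In X-GFP medium cells the members no longer moved together. Gbp9 (76.1 and 72.3 without, 154 and 160.0 with IFNγ) was higher by 1.07 ± 0.17 on the log2 scale (limma adjusted p = 0.000387), Gbp3 (65.2 and 69.2, then 116 and 153) by 0.98 ± 0.20 (limma adjusted p = 0.00189), Gbp2 (346 and 293, then 438 and 544) by 0.61 ± 0.13 (limma adjusted p = 0.00298) and Gbp4 (216 and 199, then 269.8 and 343) by 0.55 ± 0.14 (limma adjusted p = 0.00857). Gbp7 was lower in treated cells, at 253 and 305 against 405 and 347 in control cells (-0.43 ± 0.13, limma adjusted p = 0.019). The call of Gbp7 was lost without X-GFP medium control replicate 1 (-0.32, limma adjusted p = 0.195) and with all 24 libraries in 1 fit (limma adjusted p = 0.121). Gbp8, at 8.89 and 6.20 against 14.6 and 14.6, was called at 0.89 ± 0.42 (limma adjusted p = 0.0957). It rested on few reads, passed the filter through the treated libraries, and lost its call without control replicate 1 (1.12, limma adjusted p = 0.125) or control replicate 2 (0.66, limma adjusted p = 0.344). In all 5 of 6 members tested were higher and 1 lower, where 33.3% and 29.6% of all genes tested were called.

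In X-GFP high cells fewer members were called. Gbp2 measured 107 in both control libraries and 111 and 147 in treated ones, a difference of 0.25 ± 0.19 that did not pass the test (limma adjusted p = 0.353). Gbp7 was again lower, at 50.3 and 113 against 162 and 130.2 (-0.93 ± 0.31, limma adjusted p = 0.0377). Its treated libraries lay far apart. Without the lower of them, X-GFP high IFNγ replicate 1, the difference was -0.36 (limma adjusted p = 0.175), and without replicate 2 it was -1.51 (limma adjusted p = 1.12e-09). Gbp3 (28.9 and 31.0, then 41.1 and 63.6), Gbp4 (122 and 158, then 167 and 228) and Gbp9 (106 and 119.5, then 170.2 and 151) were called higher, with log2 fold changes of 0.76 ± 0.29, 0.49 ± 0.19 and 0.51 ± 0.17 and limma adjusted p values of 0.0671, 0.0776 and 0.0427.

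Of the 6 members tested in X-GFP high cells, 3 were thus higher, 1 lower and 2 not called, where 18.1% of all genes tested were called higher and 20.4% lower. Leaving out X-GFP high IFNγ replicate 2 lowered Gbp3 to 0.45 (limma adjusted p = 0.353) and Gbp4 to 0.26 (limma adjusted p = 0.325), and leaving out IFNγ replicate 1 raised Gbp2 to a call (0.45, limma adjusted p = 0.0885). Leaving out X-GFP high control replicate 1 removed all 4 calls, with 0 members at an unadjusted limma p under 0.05, and DESeq2 on the whole reads of the 4 libraries called only Gbp7. edgeR called 4 members. Gbp8 measured 12.4 and 14.9 in control and 11.4 and 10.4 in treated cells (-0.30 ± 0.39, limma adjusted p = 0.604). Gbp2b had 1 read in each of these 4 libraries.

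As interactions, the IFNγ effect was smaller in X-GFP negative cells at day 7 than at day 5 for 7 of 7 members, from -0.75 ± 0.20 in Gbp9 (limma adjusted p = 0.0205) to -2.22 ± 0.46 in Gbp8 (limma adjusted p = 0.00733), where 22.5% of all genes tested had a lower and 17.8% a higher effect. DESeq2 did not call Gbp2b there (-2.08, adjusted p = 0.113). Gbp2b and Gbp8 had means under 10 in the control cells of both populations and passed the filter through treated libraries. Between X-GFP high and negative cells the IFNγ effect was smaller in the high cells for 6 of 6 members tested, against 13.3% of all genes tested lower and 9.43% higher. Gbp7 (-2.12 ± 0.39, limma adjusted p = 0.00539) and Gbp8 (-2.11 ± 0.53, limma adjusted p = 0.0223) had the largest drops, which did not differ beyond their SE. That of Gbp8 came from low counts. The direction of Gbp7 turned, with an effect in X-GFP high cells of -0.93, or -0.36 without X-GFP high IFNγ replicate 1. Gbp2 changed by -1.25 ± 0.19 (limma adjusted p = 0.00211), Gbp3 by -1.04 ± 0.29 (limma adjusted p = 0.0332), Gbp9 by -0.83 ± 0.22 (limma adjusted p = 0.0279) and Gbp4 by -0.70 ± 0.23 (limma adjusted p = 0.0666). This count fell to 3 without X-GFP negative IFNγ replicate 1 or without X-GFP high control replicate 2, each of which ended the calls of Gbp3, Gbp4 and Gbp9 (limma adjusted p from 0.105 to 0.238). Gbp4 also lost its call without X-GFP high IFNγ replicate 1 (-0.47), X-GFP negative IFNγ replicate 2 or either X-GFP negative control library, the last 3 at -0.63 to -0.76.

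In the treated arm the levels of the members tested fell with X-GFP. In treated cells Gbp2 dropped from 2603 and 2247 in X-GFP negative to 111 and 147 in X-GFP high cells, 5.31% of the level (-4.23 ± 0.15, limma adjusted p = 3.94e-07). Gbp3 kept 8.45% (-3.57 ± 0.21, limma adjusted p = 3.8e-06), Gbp7 9.26% (-3.53 ± 0.31, limma adjusted p = 2.69e-05), Gbp4 30.0% (-1.75 ± 0.15, limma adjusted p = 2.77e-05), Gbp8 33.4% and Gbp9 60.4% (-0.72 ± 0.16, limma adjusted p = 0.00395). All 6 members tested were lower, where 34.6% of all genes tested were called lower and 34.1% higher. Chromosome 3 genes had kept less of their level than chromosome 5 genes among those tested.

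In control cells 4 of 6 members tested fell with X-GFP, against 39.3% of all genes tested lower and 34.7% higher. These were Gbp2 (-2.99 ± 0.11, limma adjusted p = 4.32e-09), Gbp3 (-2.53 ± 0.19, limma adjusted p = 4.9e-07), Gbp7 (-1.41 ± 0.13, limma adjusted p = 3.46e-06) and Gbp4 (-1.05 ± 0.15, limma adjusted p = 7.89e-05). Gbp9 (0.11 ± 0.16, limma adjusted p = 0.579) and Gbp8 (0.63 ± 0.43, limma adjusted p = 0.212) were not called, and the libraries of both groups did not overlap in either gene. X-GFP high control cells still had 19.1 ± 0.540 per 1000000 for the family, above the 2.76 ± 0.150 of ESCs.

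Levels in treated cells were also lower in the day 7 X-GFP negative population than at day 5, for 7 of 7 members. Of all genes tested 24.2% were called lower and 23.1% higher. The sorts differed here too, since SSEA1-positive cells of day 5 were not split by X-GFP. Gbp9 kept 59.0% of its day 5 level (-0.77 ± 0.14, limma adjusted p = 0.00628) and Gbp2 34.7% (-1.53 ± 0.09, limma adjusted p = 0.000209). Gbp4, Gbp8, Gbp7 and Gbp3 kept 26.0%, 23.9%, 21.6% and 21.2%, and Gbp2b 8.79%, from 108 and 93.3 to 10.7 and 6.93. Gbp2b passed the filter only through the day 5 libraries. Relative to the day 2 peak, Gbp2 stood at 12.2% and Gbp2b at 1.36%.

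Markers of other cells and of the pluripotent state moved between the day 7 arms. In X-GFP negative cells the 8 fibroblast markers summed to 5065 and 4443 in control and 1035 and 1025 in treated libraries, the 7 leukocyte markers to 2978 and 2498 and to 1198 and 1076, and the 5 pluripotency genes to 13897 and 15769 and to 24057 and 22187. In X-GFP medium cells the fibroblast markers summed to 5612 and 5042 in control and 689.7 and 743 in treated libraries, and the pluripotency genes to 35127 and 36325 and to 62313 and 59295. In X-GFP high cells the pluripotency genes summed to 73682 and 77569 in control and 92301 and 88865 in treated libraries, and the fibroblast markers to 2614 and 2125 and to 612 and 686. The leukocyte markers summed to 2190 and 1883 in control and 1232 and 1008 in treated libraries of X-GFP medium cells. In X-GFP high cells they summed to 1296 and 1155 in control and 724 and 557 in treated libraries. The part of all these markers in the levels of the family was not tested.

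The genes around the GBPs in the pathway separated into those that moved with IFNγ and those that did not. At day 2, 19 of the 30 pathway genes tested were higher and 1 lower, where 5.03% and 3.45% of all genes tested were called. The immunity-related GTPases, which act beside GBPs at vacuoles, rose in 7 of 7, as did the transcription factors in 6 of 6. Irf1 went from 424 and 327 to 7947 and 7484 (4.37 ± 0.12, limma adjusted p = 5.21e-06) and Irgm1 from 2524 and 2572 to 17139 and 16271 (2.71 ± 0.05, limma adjusted p = 8.75e-07). In both genes the arms were far apart. Of the inflammasome genes 3 of 4 tested were higher.

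Upstream of these factors there was less change at day 2. Among the receptor and kinase genes 1 of 4 was called, Jak2, at 2015 and 2099 without and 2594 and 2593 with IFNγ (0.33 ± 0.06, limma adjusted p = 0.0243). Ifngr1 measured 752 and 689.8 without and 571 and 583 with IFNγ (-0.32 ± 0.09, limma adjusted p = 0.102). The feedback inhibitor Socs1 rose from 89.6 and 79.4 to 583 and 586 (2.78 ± 0.13, limma adjusted p = 8.01e-05). The pathway gene that fell was Usp18, a deconjugase of ISG15, named after its values were seen (-1.15 ± 0.11, limma adjusted p = 0.00287). Among the genes of the LC3 conjugation machinery, which helps to bring GBPs to vacuoles, limma called 0 of 6, with 1 at an unadjusted p under 0.05, and DESeq2 and edgeR called 0 as well.

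In the later comparisons the pathway followed the family in part. At day 5, 16 of 29 pathway genes tested were higher and 0 lower, where 1.65% and 0.535% of all genes tested were called, with Irf1 at 1198 and 1392 against 4852 and 4638 (1.88 ± 0.09, limma adjusted p = 0.000234). At day 7 the counts were 14 higher and 7 lower of 28 in X-GFP negative cells (31.1% and 30.8% of all genes tested), 12 and 8 of 26 in X-GFP medium cells (33.3% and 29.6%) and 6 and 5 of 25 in X-GFP high cells (18.1% and 20.4%). Both counts in X-GFP high cells, and the counts of lower genes in all 3 populations, were thus near the share of all genes. Irf1 in X-GFP high cells was 869 and 969 without and 1119.6 and 1171 with IFNγ (0.32 ± 0.09, limma adjusted p = 0.0175). Ifngr1 was lower in treated cells of all 3 day 7 populations, by 0.67 to 1.04 on the log2 scale (-0.67, -1.04 and -0.94), as was Jak2 (-0.65, -0.66 and -0.65).

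Day 2 control cells also differed from NPCs in the pathway, with 23 of 28 genes tested higher and 4 lower, where 31.6% and 37.6% of all genes tested were called. Irgm1 went from 50.6 and 51.0 to 2524 and 2572. Irf1 differed less, at 119 and 198 and then 424 and 327. The same Y-linked feeder RNA as for the GBPs stood beside this comparison.

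Over the 12 populations, the genes most like the summed family were Irgm1 (Pearson r = 0.970), the MHC class I gene H2-T22 (0.963), the immunoproteasome subunit gene Psmb8 (0.962), Tmem140 (0.958) and Tnfsf10 (0.956), which encodes the death ligand TRAIL. The ranking covered 16240 genes other than the members, on log2(normalized count + 1) averaged per population, and the points share libraries and the day 2 peak. Of the members themselves, Gbp7 (0.982) and Gbp3 (0.977) were closest to the sum, of which they are parts, and Gbp8 (0.814) was farthest.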

How the data were processed

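RNA was measured in 24 libraries, 2 for each of 12 populations, by paired-end sequencing of rRNA-depleted total RNA with a stranded kit. According to the study's methods and the submitters' processing notes, STAR and WASP placed the reads on mm10, in which variant positions of both parental strains had been masked, and they were counted per gene with HTSeq 0.6.1. The deposited values are a normalized signal, namely read counts that the authors divided by 1 DESeq2 size factor per library. The setting for reads that fall on several genes is not given in the sources used here. A second deposited table of allelic proportions of X-linked genes holds no member and was not used. No columns of the authors' own comparisons were used.

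In every library all values were whole multiples of 1 step (tolerance 0.01), which gave back the reads. Symbols came from GENCODE vM21 and matched 95.0% of identifiers. Comparisons used limma 3.58.1 in R 4.3.3 (linear model, moderated with a trend, Benjamini-Hochberg adjustment) on log2(normalized count + 1), over genes with a mean above 10 in the 4 libraries of a pair or the 8 libraries of an interaction, with a threshold of 0.1 on the adjusted p. The filter and the threshold follow the study, whose own test was DESeq2. Fold changes on this scale understate those of low genes. Each fit was repeated with a pseudocount of 0.1, without the filter, with totals made equal, within a single model of all 24 libraries, with a block for the replicate number and without each library in turn. DESeq2 1.42.0 and the edgeR 4.0.16 quasi-likelihood test were run on the recovered reads. The scripts were tested on simulated data. Ratios on few reads carry exact 95% intervals that cover counting error only.

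Levels were compared between genes per kilobase of merged exons. Coding identity came from pairwise alignments made with Biopython 1.88. The text names all members, Gbp11, 5 pathway genes with values (1 further gene of the rule is not reported here), Usp18, which was chosen after its values were seen, and the 5 genes most like the summed family. The members and the gene lists were chosen with earlier results of these data known.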

Additional observations from a re-analysis of the deposited data

Results flagged for a closer look

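The IFNγ effect differed between day 5 and day 2, by the interaction test described above, in Gbp2 (-2.44), Gbp2b (-4.91), Gbp4 (-3.95), Gbp7 (-0.75), Gbp8 (-3.38) and Gbp9 (-1.07 on the log2 scale). Between day 7 X-GFP negative cells and day 5 it differed in Gbp2 (-1.57), Gbp2b (-2.19), Gbp3 (-1.60), Gbp4 (-1.43), Gbp7 (-2.08), Gbp8 (-2.22) and Gbp9 (-0.75). Between day 7 X-GFP high and X-GFP negative cells it differed in Gbp2 (-1.25), Gbp3 (-1.04), Gbp4 (-0.70), Gbp7 (-2.12), Gbp8 (-2.11) and Gbp9 (-0.83). In each of these the effect was smaller in the later or more X-GFP positive cells. The values of Gbp2b and Gbp8 rest on control means under 10 at day 2, at day 5 and in X-GFP negative cells.

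Both treated libraries of X-GFP medium cells lay below both control libraries for Gbp7 (-0.43), where those of X-GFP negative cells lay above, and this difference was not tested. Both treated libraries of X-GFP high cells lay below both control libraries for Gbp8 (-0.30), where those of X-GFP medium cells lay above, and this difference was not tested either. Within X-GFP high cells Gbp8 was not called (limma adjusted p = 0.604). The share of all genes whose libraries separate in this way was not counted.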

How the results depend on the processing

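No direction of a member turned under any alternative run. Of 650 single-gene values under alternatives other than leaving out a library, 633 stayed on their side of the threshold, 15 lost their call and 2 gained one, and of 449 values with 1 library left out, 23 lost and 1 gained a call. Calls were lost mainly in day 7 X-GFP medium and high cells. In X-GFP high cells 4 members were called, against 1 with no filter on low values and 1 with DESeq2. DESeq2 also ended the call of Gbp4 between ESCs and NPCs (adjusted p = 0.254), and it gave no adjusted p for Gbp8 between X-GFP high and negative cells. The cause was not tested. Leaving out 1 library leaves an arm with 1 library, assumed to vary like the others. The IFNγ calls then numbered 7 to 7 at day 2 and at day 5, 6 to 6, 4 to 5 and 0 to 3 in the negative, medium and high cells of day 7. They numbered 4 to 4 for ESC against NPC, 5 to 6 for day 2 control against NPC, 5 to 5 and 7 to 7 for day 5 against day 2 without and with IFNγ, 7 to 7 for day 7 against day 5, and 4 to 4 and 6 to 6 for X-GFP high against negative without and with IFNγ. For the change of the IFNγ effect they numbered 6 to 6 and 7 to 7 for the steps in time, and 3 to 6 for X-GFP high against negative. With mt-Rnr2 left out of the total, the family took 3.04 of every 1000000 normalized counts in ESCs, 16.3 in NPCs, 156 and 2646 at day 2 without and with IFNγ, 85.6 and 716 at day 5, 72.6 and 212 in the negative and 43.0 and 56.2 in the medium cells of day 7, and 22.1 in the high control cells. Libraries of a pair of groups share only a replicate number, and the deviations of same-numbered libraries correlated at -0.19 to 0.41 over genes. The highest values were those of IFNγ against control at day 2 (0.41) and day 5 (0.36). The replicate block changed 1 call, that of Gbp3 for the change between day 5 and day 2 (0.64, limma adjusted p = 0.0813), so that 7 members were called there in place of 6. The other counts of called members were 7 and 7 for IFNγ at day 2 and 5, and 6, 6 and 4 in the day 7 populations, with and without the block. Over all genes the block raised the day 2 calls from 790 higher and 542 lower to 2652 and 2343 of 15697. At day 5 it raised them from 249 and 81 to 1810 and 1569 of 15133. The shares of all genes set beside the members are those without the block. Counts over all genes moved when totals were made equal. IFNγ in X-GFP negative cells then called 6730 higher and 3417 lower of 15484 genes, against 4836 and 4781 of 15531. Its change between X-GFP high and negative cells was then called lower in 4071 and higher in 656 of 15734 genes. Without that step it was 2101 and 1487 of 15764. Genes with few reads, Gbp2b before treatment above all, are limited by counting error.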

Other observations

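Gbp11 was read in the same libraries as its neighbours on chromosome 5. It was at 0 in both ESC libraries, at 0.972 and 1.76 normalized counts in NPCs and at 5.09 and 2.98 in day 2 control cells, and reached 556 and 694 with IFNγ. At day 5 it measured 1.68 and 1.78 without and 24.1 and 23.7 with IFNγ, a ratio of 13.8 on 58 against 4 reads (exact counting interval 5.12 to 52.5). Its coding sequence shared 96.0% of aligned bases with Gbp8, so reads of one may have been counted for the other, and this was not tested.

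In the day 7 populations the share of Gbp7 in the family was lower in the treated arm. Per kilobase of exon Gbp7 took 25.9% of the sum of the 7 members in X-GFP medium control cells and 13.7% in treated ones, and 21.2% and 10.2% in X-GFP high cells. In X-GFP negative cells the shares were 13.1% and 10.8%. Gbp2 took 34.7% and 35.9% in X-GFP high cells, and Gbp9 17.8% and 21.8%. These shares were not tested.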
